A study of Mus musculus with 30 samples.

Results

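Renewed induction of Nanog in mouse embryonic stem cells kept without doxycycline for 5 days was examined on 6 of the 30 arrays of the series. The 3 pulsed arrays came from cells withdrawn from doxycycline for 5 days and then given the drug back for 12 h. The 3 timed control arrays came from cells withdrawn alike and left without it over the same 12 h. Both groups were chosen by their labels, and all genes on the array were compared between them. The cells of all groups were the rescue clone NgR (AINV15_Nanog_Rescue), made from rtTA-expressing embryonic stem cells and kept on primary mouse embryonic fibroblasts, in medium that held doxycycline at 1 ug/ml before withdrawal. Values of 2 further groups are given for orientation, cells on day 5 of withdrawal harvested before those 12 h (day 5 -Dox) and cells never withdrawn (day 0 +Dox), and the pulses on day 1 and day 3 are compared with that on day 5. The clone is a single one, the labels do not say whether the arrays of a group came from separate cultures, and no arrays came from cells that received doxycycline without the transgene. The p-values therefore measure spread between arrays within groups, pooled over all 30 arrays unless stated otherwise. A response to doxycycline itself cannot be told apart from a response to Nanog.

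Nanog is a homeodomain transcription factor of the early epiblast and of embryonic stem cells, where it acts with Oct4 (Pou5f1) and Sox2 on genes of the naive state. Its level varies between cells in culture, and cells low in Nanog remain undifferentiated for a time but leave self-renewal more readily. A short pulse after withdrawal reads which genes respond within hours of its renewed induction. A bulk array cannot tell fewer cells expressing a gene from less RNA of it per cell.

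Nanog itself checked the labels. Its log2 signal was 11.001, 10.83 and 10.70 in the pulsed arrays, against 10.07, 10.09 and 10.04 in the timed controls. The lowest pulsed array stood above the highest control, and the pulsed mean of 10.84 ± 0.15 approached the day 0 mean of 11.03 ± 0.02 (SD, n = 3 each). The pulse raised the signal by 0.78 ± 0.08 (log2, standard error), or 1.71-fold, with an adjusted p of 4.26e-06 in limma. With the spread taken from the 6 arrays alone the adjusted p was 0.0789. Withdrawal had changed the signal by -1.18 (log2), to a mean of 9.85 on day 5 before the pulse. The withdrawn cells therefore cannot be taken as free of Nanog. The probe set does not separate the transgene from the endogenous gene.

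The arrays of the 2 groups differed in spread. The interquartile range of all signals on an array was 2.71, 2.46 and 2.44 (log2) in the pulsed arrays, against 2.53, 2.95 and 2.93 in the timed controls. Control replicates 2 and 3 were the widest of the 30 arrays, and only the replicate 1 arrays ran the other way, with the pulsed one wider. Results below come from a limma fit on group means over all 30 arrays. A second fit held the interquartile range of each array as a covariate and is called the spread-adjusted fit. Its value or its call stands beside those results that it bears on, and the replicate 1 values are part of the array signals given for single genes. A cluster of probes, the unit the array reports for a gene, was called at a Benjamini-Hochberg adjusted p under 0.05 over 23385 clusters.

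**Figure D1:**
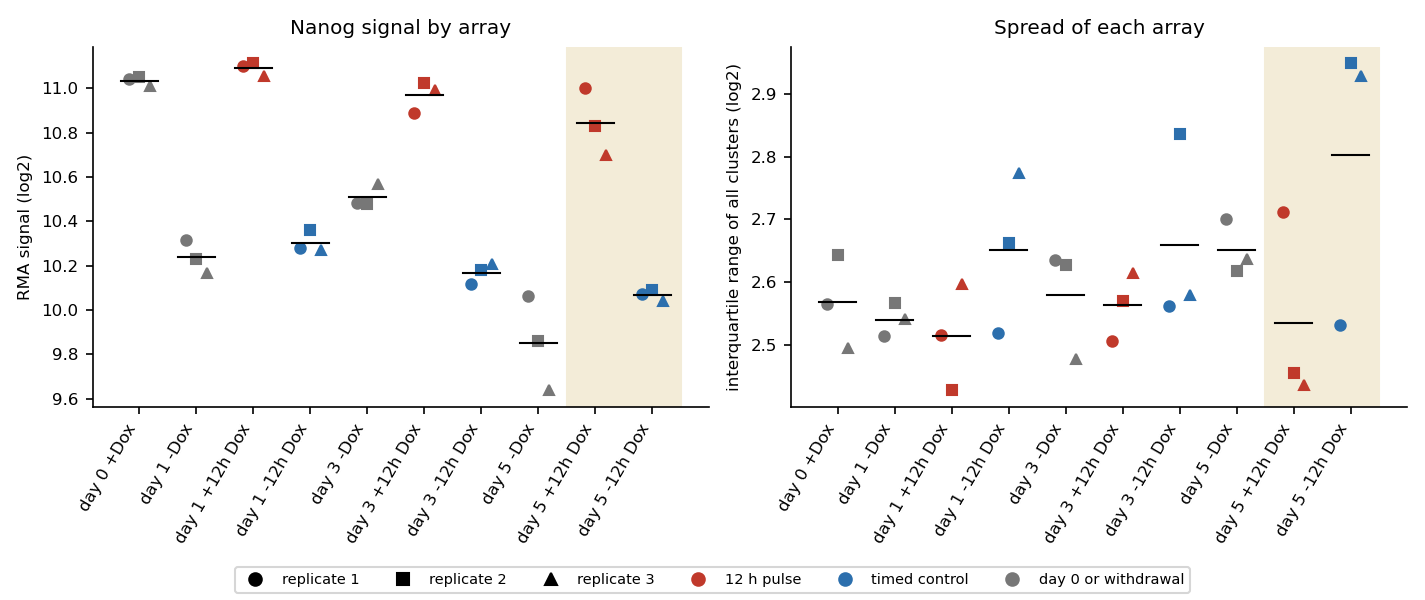
Nanog signal (left, log2) and interquartile range of all signals (right, log2) on each of the 30 arrays, by group, with shapes for replicate numbers and bars for group means; the shaded columns are the day 5 pulse and its timed control. Pulsed arrays sit at 10.70 to 11.001 for Nanog and controls at 10.04 to 10.09, while control replicates 2 and 3 have the widest spread, 2.95 and 2.93.

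On group means, 2860 clusters were called, or 12.2% of those tested, 1200 higher (5.13%) and 1660 lower (7.1%) after the pulse. The changes were small. A change of at least 2-fold was reached by 5 called clusters, 2 higher (a dim Trdn cluster and Igkv5-43) and 3 lower (Meiob, Obox6 and 1 cluster of Zc3h6). The spread-adjusted fit called 537 (2.3%), 293 higher (1.25%) and 244 lower (1.04%). Both fits called 331 clusters (1.42%) in the same direction, 112 higher (0.479%) and 219 lower (0.936%). In each of these 331 the replicate 1 arrays differed in that direction too, but those arrays enter both fits, so this is no separate check. Among all calls on group means, the replicate 1 arrays ran the same way for 841 of 1200 rises and 1378 of 1660 falls. A fit of the 6 arrays alone called no cluster after adjustment, although 4322 had an unadjusted p under 0.05, against 7651 with the spread taken from all 30 arrays. A narrower set of 206 clusters, 34 higher (0.145%) and 172 lower (0.736%), was called on group means, with each of the 6 arrays left out in turn, and under the 4 other treatments of array scale.

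The direction of change followed signal strength. Clusters were divided into quintiles by mean signal over all arrays. In the dimmest quintile the median difference was 0.17 with 475 rises and 28 falls, and in the fourth quintile it was -0.11 with 51 rises and 666 falls. The replicate 1 arrays showed the reverse order, with medians of -0.05 in the dimmest and 0.09 in the fourth quintile. The spread-adjusted medians of the 5 quintiles lay between -0.02 and 0.03. The part of array spread in the calls of any 1 gene was not tested.

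**Figure D2:**
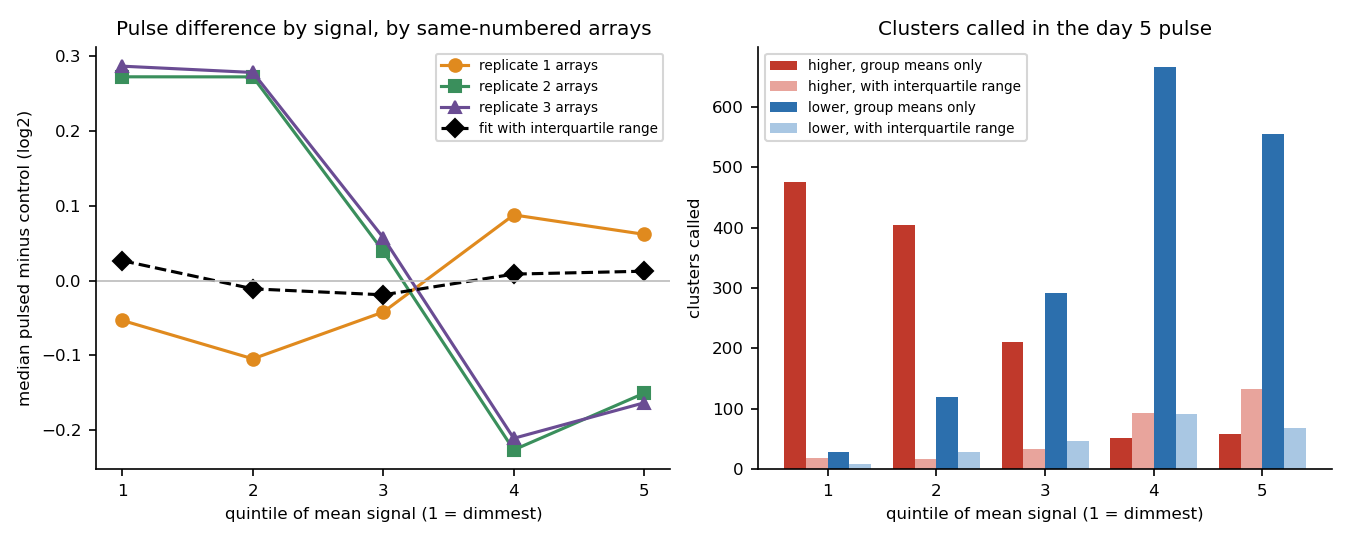
Median pulsed minus control difference (left, log2) in each quintile of mean signal, for arrays of the same replicate number and for the spread-adjusted fit, and number of clusters called (right) in each quintile. Replicates 2 and 3 run from above 0 in dim clusters to below 0 in bright ones, replicate 1 runs the other way, and the spread-adjusted medians stay near 0.

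Families of sensory receptors and of epithelial proteins, with no known role in stem cells, were among the rises on group means. The counts of each family take clusters with a single symbol, and stand beside 5.13% higher and 7.1% lower over all clusters on group means, and 1.25% and 1.04% after spread adjustment. Of 1035 clusters of olfactory receptors, the odorant receptors of the nasal epithelium, 158 were higher (15.3%) and 2 lower. Vomeronasal receptors, which sense pheromones, had 17 of 174 higher, and defensins, antimicrobial peptides, 13 of 42. The cornified envelope genes of the Sprr and Lce families had 6 of 32 higher. Their spread-adjusted counts were 4 higher and 4 lower for olfactory receptors, 2 and 0 for vomeronasal receptors, 0 and 0 for defensins, and 0 and 1 for the cornified envelope genes. In the replicate 1 arrays the medians of all 4 families were below 0, from -0.12 to -0.02. Clusters that carry several symbols of 1 family were counted apart. Of these, 16 of 97 olfactory, 12 of 64 vomeronasal, 0 of 7 defensin and 4 of 4 cornified envelope clusters were higher on group means. Of those 4 cornified envelope clusters, 2 hold the same values. After spread adjustment 1 olfactory cluster and 1 cornified envelope cluster were called higher.

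That cornified envelope cluster carries the symbols Sprr2a1, Sprr2a2, Sprr2a3 and Sprr2b, small proline-rich proteins of the epidermal barrier. It had 9.41, 9.48 and 9.29 in pulsed arrays, against 8.75, 8.48 and 8.64 in controls. The groups were well apart, and the rise of 0.77 ± 0.09 (adjusted p 9.07e-06) was 0.75 after spread adjustment (adjusted p 0.000246). It was called with each array left out and under the 4 treatments of array scale, and was singled out after its values were seen. Its level was 8.29 on day 5 before the pulse and 8.19 on day 0, and the pulse changes on days 1 and 3 were 0.01 and -0.25. Members of these 4 families have near-identical copies, so single members are uncertain.

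Among clusters with a single symbol, the brightest for each gene, the 12 largest rises with no overlap between the groups' arrays were set out. Of these, 9 belonged to these families, with rises of 0.67 to 0.76. They were Olfr1028, Olfr149, Olfr1261, Olfr113, Vmn1r86, Vmn1r48, Vmn2r9, Lce1i and Sprr1a. The largest of the 12 was the immunoglobulin segment Igkv5-43, up by 1.005 on group means but at an adjusted p of 0.0688 after spread adjustment. Hamp, the iron hormone hepcidin, was up by 0.78 and had an adjusted p of 0.0599 in that fit. Nanog, Olfr149 and Olfr1261 were the rises among these 12 that both fits called.

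Small nucleolar RNAs, guides for the modification of ribosomal RNA, had 6 of 56 clusters higher on group means (10.7%, beside 5.13% of all clusters) and 14 after spread adjustment (beside 1.25%). None was lower in either fit, and they had a median difference of 0.41 in the replicate 1 arrays. Snora75 had 9.81, 9.995 and 9.87 in pulsed arrays, against 9.41, 9.30 and 9.41 in controls. The pulsed arrays lay above all controls, with a difference of 0.52 ± 0.10 and adjusted p-values of 0.0016 and 0.0207 in the group-mean and spread-adjusted limma fits. Many such clusters share probes with copies elsewhere, which leaves their values uncertain.

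The 3 falls of at least 2-fold were of Meiob, Zc3h6 and Obox6. The 12 largest falls, Meiob and Obox6 among them, were named only where the groups' arrays did not overlap. For those 12 the lack of overlap is therefore a condition of choice and no separate result. Meiob, a single-strand DNA binding protein of meiotic recombination, had 5.77, 5.43 and 5.08 in pulsed arrays, against 6.70, 7.63 and 7.21 in controls. The highest pulsed array lay below the lowest control. It fell by 1.76 ± 0.24, to a pulsed mean of 5.42, with 7.57 on day 5 before the pulse and 4.13 on day 0. Limma gave an adjusted p of 6.65e-05 on group means, and a change of -1.20 with 0.000571 after spread adjustment.

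Zc3h6, a CCCH zinc finger gene, was represented by 2 clusters. The dimmer had 6.35, 6.16 and 6.26 in pulsed arrays, against 7.04, 7.77 and 7.56 in controls. The groups did not overlap, and the difference was -1.20 ± 0.14 (adjusted p 1.86e-05), and -0.89 after spread adjustment (adjusted p 0.000246). The brighter Zc3h6 cluster differed by -0.71, and by -0.57 after spread adjustment, and was called in both fits.

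Obox6, an oocyte-specific homeobox gene, had 5.91, 6.16 and 6.08 in pulsed arrays, against 6.87, 7.37 and 7.46 in controls. The groups did not overlap, and the difference was -1.18 ± 0.13 (adjusted p 8.34e-06, and 0.000246 after spread adjustment). A second, dimmer cluster annotated to Obox6 differed by 0.05 and was not called. Dppa3, the maternal factor Stella that guards DNA methylation in the egg and marks naive stem cells and germ cells, had 8.81, 8.52 and 8.74 in pulsed arrays, against 9.37, 9.30 and 9.69 in controls. Its arrays did not overlap either, and it fell by 0.76 ± 0.14 (adjusted p 0.00201), with 0.0456 after spread adjustment. A second Dppa3 cluster fell by 0.73 on group means and had an adjusted p of 0.0856 after spread adjustment.

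Cntd1 and Tdrd12 were also among the 12 largest falls. Cntd1, a cyclin-like factor of meiotic crossing over, had 8.39, 8.18 and 8.42 in pulsed arrays, against 9.002, 9.28 and 9.27 in controls. The groups did not overlap, and the difference was -0.85 ± 0.10 (adjusted p 1.86e-05, and 0.000494 after spread adjustment). Tdrd12, a Tudor protein of transposon silencing, fell by 0.78 ± 0.11, and its spread-adjusted change was -0.57. Of the 19 measured genes of the germline list, 4 fell on group means, namely Meiob, Dppa3, Stag3 and Dnd1, and 2 of them, Meiob and Dppa3, in both fits, beside 7.1% of all clusters lower on group means and 0.936% in both fits. Ddx4, Dazl, Mael, Hormad1 and Sycp1 to Sycp3 of this list were not called in either fit. Tfap2c, a germline and trophoblast factor, was called higher in the spread-adjusted fit alone. The list median was -0.09, beside 0.02 over all tested clusters.

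Txnip and Arrdc4, related alpha-arrestins that restrain glucose uptake and are induced by glucose through the MondoA and ChREBP factors, fell together. Their promoters are shown because both genes moved in the same direction. The windows are 300 bases from RefSeq on GRCm38.p6, 250 before and 50 after the annotated start, printed along the strand of the gene. Capitals mark CCAAT on either strand and, where present, the pattern of CACGNG, 5 bases of any kind and CACGNG again on either strand, a loose form of the carbohydrate response element chosen with the Txnip element in mind. Txnip lies on the plus strand at chr3:96557707-96558006, and Arrdc4 on the minus strand at chr7:68749189-68749488.
Txnip: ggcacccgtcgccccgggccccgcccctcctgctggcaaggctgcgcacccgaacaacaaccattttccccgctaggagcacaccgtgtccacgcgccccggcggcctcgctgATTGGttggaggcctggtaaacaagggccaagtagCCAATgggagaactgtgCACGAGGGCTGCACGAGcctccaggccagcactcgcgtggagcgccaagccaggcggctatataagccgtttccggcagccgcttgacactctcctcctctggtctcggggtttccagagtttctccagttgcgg
Arrdc4: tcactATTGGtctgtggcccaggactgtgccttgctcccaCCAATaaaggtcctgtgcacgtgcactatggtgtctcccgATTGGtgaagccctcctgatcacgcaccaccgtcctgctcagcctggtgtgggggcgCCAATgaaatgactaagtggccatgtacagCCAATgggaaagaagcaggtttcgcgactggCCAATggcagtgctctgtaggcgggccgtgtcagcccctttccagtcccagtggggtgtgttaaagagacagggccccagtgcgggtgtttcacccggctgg
The Txnip window holds 2 CCAAT matches and 1 match of the paired pattern, which begins 85 bases before the start. The Arrdc4 window holds 6 CCAAT matches and none of the paired pattern. Over the 32851 promoters of this length, 37.4% hold at least 1 CCAAT and 11.7% at least 2, while 16 promoters (0.0487%) hold the paired pattern. A match describes the letters of the window and nothing about binding.

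Txnip signal was 11.43, 11.20 and 11.28 in pulsed arrays, against 12.08, 12.24 and 12.04 in controls. The groups stood well apart, and the change of -0.82 ± 0.07 had the smallest adjusted p of the named falls, 5.93e-07 in limma. It had been 10.90 on day 0 and 12.43 on day 5 before the pulse. After spread adjustment the change was -0.75 (adjusted p 1.48e-05). Arrdc4 signal was 9.37, 9.19 and 9.20 in pulsed arrays, against 9.84, 10.30 and 9.95 in controls, again without overlap. Its change was -0.77 ± 0.09 (adjusted p 1.31e-05), and -0.63 after spread adjustment. Their pulsed means of 11.30 and 9.25 compare with day 0 means of 10.90 and 9.33. Pdk4, the kinase that shuts pyruvate out of mitochondrial oxidation, and Insr, the insulin receptor, were also lower in both fits, with changes of -0.61 and -0.48 on group means and -0.42 and -0.36 after spread adjustment. A second Insr cluster, dimmer, was lower on group means only. These 2 were picked after their values were seen.

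Apela, the secreted peptide Elabela that signals through the apelin receptor, had 8.45, 7.93 and 7.96 in pulsed arrays, against 8.93, 9.19 and 9.10 in controls. All pulsed arrays lay below all controls, and its pulsed mean of 8.11 was also below the day 0 mean of 8.76. The difference was -0.96 ± 0.12 (adjusted p 2.81e-05), and -0.71 after spread adjustment. Epp13 fell by 0.86 ± 0.09 and Gm5617 fell by 0.76 ± 0.12, each called in both fits. H3c15, a histone gene, and the dim olfactory receptor Olfr798 were among the 12 largest falls on group means, with adjusted p-values of 0.169 and 0.0722 after spread adjustment.

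Several enzymes of glutathione metabolism and detoxification are given next, picked after their values were seen and so no measure of how that pathway moved. Gstm3, a glutathione transferase of class mu, had 9.15, 8.99 and 8.995 in pulsed arrays, against 9.82, 9.97 and 9.94 in controls. The arrays did not overlap, and it fell by 0.87 ± 0.13 (adjusted p 0.000201, and 0.00562 after spread adjustment). A second Gstm3 cluster fell by 0.99. Gstm1 fell by 0.71 and Gstm6 fell by 0.66, with spread-adjusted changes of -0.57 and -0.52, and the near-identity of these family members makes their separate values uncertain. Of 20 clusters with a single symbol of the glutathione transferase classes, 11 were lower on group means (beside 7.1% of all clusters) and 5 after spread adjustment (beside 1.04%), and none was higher. Gclc and Gclm, the catalytic and modifier subunits of the enzyme that commits cysteine to glutathione, changed by -0.48 and -0.50, and by -0.32 and -0.31 after spread adjustment. Ephx1, an epoxide hydrolase, fell by 0.64 and Blvrb, biliverdin reductase B, fell by 0.57, with -0.41 and -0.40 after spread adjustment. Both fits called each gene named in this group.

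**Figure D3:**
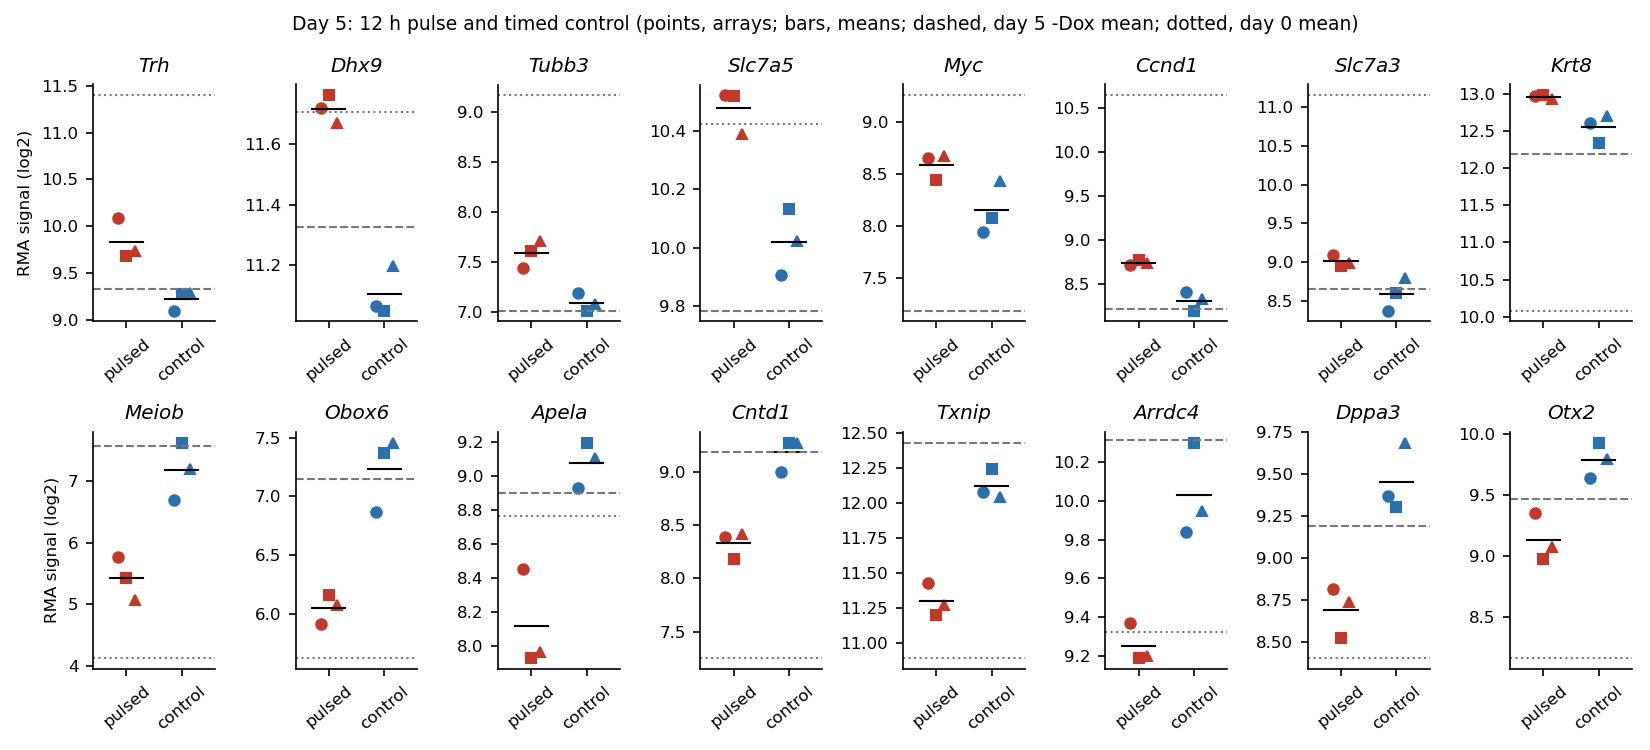
RMA signal (log2) of 8 genes called higher (top) and 8 called lower (bottom) after the day 5 pulse, with a point for each pulsed and control array, bars for group means, a dashed line for the day 5 -Dox mean and a dotted line for the day 0 mean. In each panel the 3 pulsed arrays lie on 1 side of the 3 controls, which was a condition for naming the largest falls and some of the rises. Txnip and Arrdc4 in pulsed cells lie nearer day 0 than the controls do.

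Rises called in both fits were fewer and weaker than falls, but this balance depended on the fit. The spread-adjusted fit alone called 293 higher and 244 lower. The genes given here were picked after the fits were seen, in part by a rule that asked for no overlap between the groups' arrays. Dhx9, an RNA and DNA helicase, had 11.72, 11.76 and 11.67 in pulsed arrays, against 11.06, 11.05 and 11.20 in controls. The rise was 0.62 ± 0.08 (adjusted p 2.81e-05), and 0.63 after spread adjustment, and the pulsed mean of 11.72 stood at the day 0 mean of 11.71. Trh, the precursor of thyrotropin-releasing hormone, had 10.09, 9.68 and 9.73 in pulsed arrays, against 9.10, 9.28 and 9.29 in controls. It rose by 0.61 ± 0.11 (adjusted p 0.00187), and by 0.85 after spread adjustment, and its pulsed mean of 9.83 remained below the 11.40 of day 0.

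Ccnd1, the cyclin D1 that carries cells through G1, had 8.72, 8.77 and 8.74 in pulsed arrays, against 8.40, 8.20 and 8.33 in controls. The groups did not overlap, and the rise was 0.43 ± 0.08 (adjusted p 0.00169), and 0.46 after spread adjustment. Myc, the growth-promoting transcription factor, had 8.66, 8.45 and 8.67 in pulsed arrays, against 7.94, 8.08 and 8.44 in controls. The lowest pulsed array stood barely above the highest control. Its rise was 0.44 ± 0.13 on group means (adjusted p 0.0289), held in 2 of the 6 fits with 1 array left out, and was 0.69 after spread adjustment (adjusted p 0.00189). Tubb3, a neuronal beta-tubulin that stem cells also express, rose by 0.49 ± 0.09, and by 0.40 after spread adjustment.

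A pair of amino acid carriers rose in both fits. Slc7a5, the light chain of the LAT1 carrier of large neutral amino acids, had 10.52, 10.52 and 10.39 in pulsed arrays, against 9.91, 10.13 and 10.02 in controls. The pulsed mean of 10.48 was at the level of day 0, 10.42, and the rise was 0.46 ± 0.09 (adjusted p 0.00225), and 0.50 after spread adjustment. Slc7a3, a carrier of arginine and lysine, had 9.09, 8.95 and 8.99 in pulsed arrays, against 8.37, 8.59 and 8.79 in controls. Its rise of 0.43 ± 0.08 (adjusted p 0.00245), or 0.55 after spread adjustment, left it below the 11.16 of day 0. Over all clusters, 5.13% were higher and 7.1% lower on group means, and 1.25% and 1.04% after spread adjustment. Of 15 measured amino acid transport genes, these 2 carriers rose and Slc7a8 fell on group means, and the spread-adjusted fit called 3 higher and none lower. In the list of ATF4 targets and serine synthesis, the same 2 carriers and Fgf21 were higher among 21, and Fgf21 was not called after spread adjustment.

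The naive pluripotency genes did not move together. Of 25 measured, 2 rose, 7 fell and 16 were not called on group means, while the spread-adjusted fit called 4 higher and 1 lower. Over all clusters the shares were 5.13% higher and 7.1% lower on group means, and 1.25% and 1.04% after spread adjustment, and the counts of the lists that follow stand beside the same shares. The list median was -0.04, and 0.02 after spread adjustment. The list includes Nanog, whose rise the clone provides. Beside Nanog, Prdm14, a repressor of FGF signalling and DNA methylation in naive cells, rose in both fits, by 0.28 and 0.39 (adjusted p 0.0192 and 0.00437). Prdm14 had 8.11, 7.93 and 7.96 in pulsed arrays, against 7.61, 7.77 and 7.79 in controls. Zfp42 (Rex1) and Nr0b1 (Dax1) were called only after spread adjustment, at 0.41 and 0.54, with 0.22 and 0.32 on group means. Pecam1, Tcl1 and 4 other members besides Dppa3 were lower on group means only.

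Most of the core factors showed no called change. Esrrb differed by 0.17 ± 0.11, Klf2 by 0.02, Klf4 by -0.02, Klf5 by -0.16, Tbx3 by 0.01 and Tfcp2l1 by -0.10, with adjusted p-values of 0.157 to 0.921 in limma. Esrrb had 9.66, 9.32 and 9.29 in pulsed arrays, against 9.05, 9.57 and 9.14 in controls, and the groups overlapped. Pou5f1 differed by -0.17 ± 0.09 and Sall4 by -0.14 ± 0.07, neither called in either fit. Sox2 fell by 0.26 on group means (adjusted p 0.039) but was at -0.17 and not called after spread adjustment, and 0.11 higher once arrays were scaled to a common interquartile range. Of 21 general pluripotency genes, 4 fell on group means and none in the spread-adjusted fit, which called 1 higher, Cdh1.

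Otx2, the homeobox factor of formative epiblast and later of the anterior brain, was lower after the pulse. Its signal was 9.35, 8.98 and 9.08 in pulsed arrays, against 9.63, 9.93 and 9.79 in controls. The arrays were apart, and the change was -0.65 ± 0.11 (adjusted p 0.000756), and -0.45 after spread adjustment (adjusted p 0.0146). Withdrawal had taken it the other way, with 9.46 on day 5 before the pulse and 8.17 on day 0. Among 19 formative and primed genes, Otx2 was the only one to fall and Cdh2 (N-cadherin), at 0.32 and after spread adjustment 0.36, the only one to rise, in each of the 2 fits. Fgf5, a ligand of the primed epiblast, differed by 0.19 and was not called.

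Lineage markers changed in few cases. Of 20 trophectoderm genes, Krt8 and Ascl2 rose in both fits, and Gata3 was lower on group means only. Krt8, a simple epithelial keratin, had 12.97, 12.99 and 12.94 in pulsed arrays, against 12.62, 12.35 and 12.71 in controls. The pulsed arrays were close together and above all controls, with a rise of 0.41 ± 0.09 (adjusted p 0.00603), and 0.40 after spread adjustment. This ran with withdrawal and not against it, since Krt8 stood at 12.19 on day 5 before the pulse and 10.08 on day 0. Ascl2, a basic helix-loop-helix factor of the placenta, rose by 0.41 ± 0.10, and by 0.60 after spread adjustment. Krt7 and Krt18 differed by 0.09 and 0.10 and Cdx2 by 0.27 (adjusted p 0.0523), none called.

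Of 27 extraembryonic endoderm genes, 1 was called, Apoe, lower on group means only. Gata6 and Gata4, regulators of that lineage, differed by 0.06 and 0.15. None of 21 genes of primitive streak and mesoderm was called in either fit. Tubb3 and Ncam1 were called among 20 neural genes on group means, and Tubb3 and Ina after spread adjustment. A second Ina cluster, slightly dimmer, was called higher in both fits. The 2-cell-like list had 2 of 7 lower on group means, Tcstv3 and Tmem92, and none after spread adjustment.

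Feeder fibroblasts could contribute RNA to every array. Of 30 measured fibroblast markers, 6 were higher and 2 lower on group means, and 2 higher and 1 lower after spread adjustment, beside the shares over all clusters given above. Their mean signal per array was 7.82 to 7.88 in pulsed arrays and 7.69 to 7.81 in controls, and the files hold no detection calls by which a marker could be called absent. Vim and Cav1 rose in both fits, by 0.31 and 0.37 on group means, and Ccn2, a matrix factor induced by YAP, fell by 0.46. Both stem cells and fibroblasts can express these 3, which were singled out after their values were seen. Mmp3 was 0.43 higher on group means with the replicate 1 arrays at -0.03. The part of feeder RNA in other results was not tested. Of 13 vascular and blood markers, Tek, the angiopoietin receptor, was lower in both fits at -0.53 on group means. Cdh5 and Cd34 were called higher and Pecam1 lower on group means only.

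Signalling targets gave single changes within each list. Lefty1, a secreted inhibitor and target of Nodal, had 8.88, 8.18 and 8.34 in pulsed arrays, against 8.99, 9.30 and 9.12 in controls. Every pulsed array was below the lowest control, though replicate 1 by little. Its change was -0.67 ± 0.13 (adjusted p 0.00196), and -0.47 after spread adjustment (adjusted p 0.0441), and it had stood at 8.95 on day 5 before the pulse and 10.25 on day 0. Skil was the other of 17 Nodal and BMP targets to be called, lower on group means only.

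Of 19 ERK targets and feedback genes, Myc and Spry4 rose in both fits and none fell. Spry4, a feedback inhibitor of receptor tyrosine kinases, had 8.13, 7.75 and 7.95 in pulsed arrays, against 7.35, 7.83 and 7.53 in controls. Its groups overlapped, and the rise of 0.37 ± 0.11 was called in 2 of the 6 fits with an array left out. Among 18 LIF and STAT3 targets, Myc was higher and Pim1, Pim3 and Sgk1 were lower on group means, and after spread adjustment Myc alone was called. Of 15 Wnt targets, Ccnd1 rose in both fits, and Notum was higher and Fzd7 lower on group means only.

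Cell cycle genes moved both ways. Ccnd1, the G1/S cyclin gene Ccne1 and the thymidylate synthase gene Tyms rose in both fits, by 0.43, 0.26 and 0.31 on group means. Of the 25 measured, 5 were lower on group means, the mitotic or proliferation genes Ccnb2, Bub1, Aurkb, Top2a and Mki67. None of these 5 was called after spread adjustment, and Ccnb2 and Bub1 changed sign, to 0.03 and 0.04, when arrays were scaled to a common interquartile range.

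Stress, metabolic and chromatin lists held few calls of both fits. Calr, an endoplasmic reticulum chaperone, rose by 0.21, with 2 of 16 unfolded protein response genes, Dnajb9 and Herpud1, lower on group means only. Ndrg1, a hypoxia-induced gene, rose by 0.28 in both fits, and the glucose transporter Slc2a1 by 0.21 on group means only. Among 16 mitochondrial import and stress genes, Hspd1, a mitochondrial chaperonin, was higher and Trap1 and Tomm20 lower on group means. In their brightest clusters none of these 3 was called after spread adjustment, but the other Hspd1 cluster was called in both fits, at 0.27 and 0.33 (adjusted p 0.00959 and 0.00778). Tomm40, an import pore protein, was called after spread adjustment alone, at 0.31 (adjusted p 0.00677). Of 21 Polycomb and DNA methylation genes, Dnmt3l, Suz12 and Pcgf6 were lower on group means and none after spread adjustment. Ifitm3 rose in both fits by 0.26 among 16 interferon and antigen presentation genes, and Ifit1 and Ifit3 on group means only. Of 13 apoptosis genes 2 were higher and 3 lower on group means, and of 21 adhesion genes 1 was higher, Cdh2, and 1 lower, Gja1. No gene of 16 p53 targets or 13 of cholesterol synthesis was called in either fit, and of 9 housekeeping genes, 1, Hprt, was called after spread adjustment alone.

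**Figure D4:**
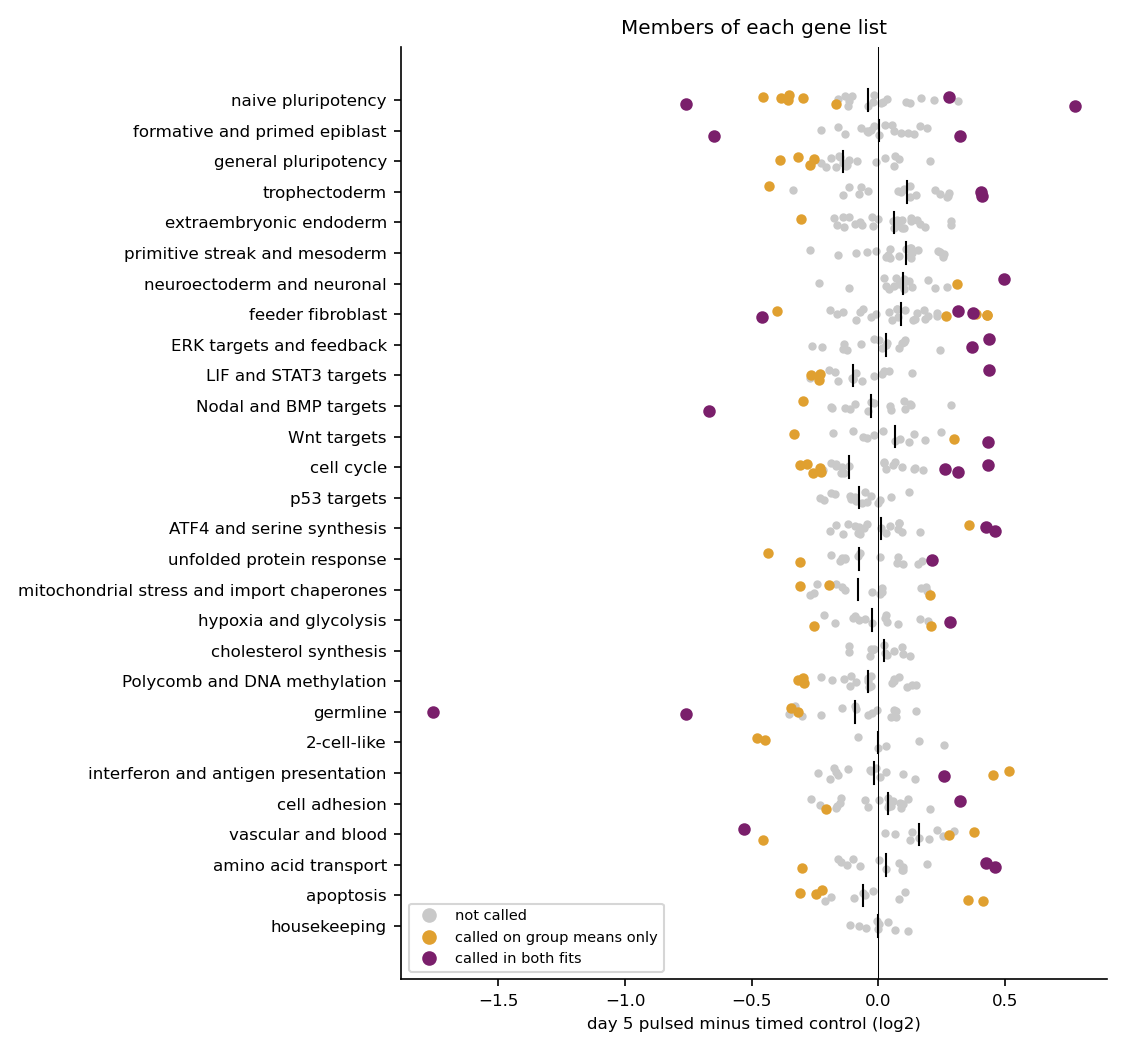
Pulsed minus control difference on day 5 (log2, group means) for each measured member of the 28 gene lists, coloured by whether it was not called, called on group means only, or called in both fits, with a bar at each list's median. Medians lie close to 0, and the members called in both fits are single genes such as Meiob at -1.76, Dppa3 at -0.76, Otx2 at -0.65 and Nanog at 0.78.

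The pulse on day 5 was compared with those on days 1 and 3, which used separate arrays. For Nanog the change was 0.79, 0.80 and 0.78 on days 1, 3 and 5, and the day 5 change differed from the others by -0.01 and -0.02 with a standard error of 0.11 (adjusted p 0.981 and 0.937). The number of clusters called on group means was 877 (3.75%) on day 1, 9 (0.0385%) on day 3 and 2860 (12.2%) on day 5. After spread adjustment the day 5 count was 537 (2.3%), and the counts of days 1 and 3 in that fit are not given here. The counts on group means therefore do not rank the pulses by size of response. A test of the difference itself called 26 clusters between days 5 and 1 (0.111%) and 219 between days 5 and 3 (0.936%), and 322 (1.38%) and 833 (3.56%) in the spread-adjusted fit.

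Mras, a Ras-related GTPase, had the lowest adjusted p among the named differences from day 1. Its pulse change was 1.05 on day 1, 0.13 on day 3 and 0.03 on day 5, a day 5 minus day 1 difference of -1.01 (adjusted p 9.03e-06). On day 5 it had 7.26, 7.65 and 7.48 in pulsed arrays, against 7.42, 7.44 and 7.42 in controls, so the groups overlapped. A second Mras cluster, dimmer, differed by 0.43 on day 5 and was not called. Spry4 and Krt7 differed in the other direction from day 1, by 0.92 and 0.64. Both changed by -0.55 on day 1, and on day 5 their differences were 0.37 and 0.09. Peg10, an imprinted gene of the placenta, showed a difference of 0.59, and Mme, the peptidase CD10, one of -0.74. Zfp979, a zinc finger gene, had a difference of -0.95, at 0.45 on day 1 and -0.50 on day 5.

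Against day 3, several of the falls described above differed. Meiob differed between the pulses by -1.67, Obox6 by -1.21, Gstm3 by -1.001, Dppa3 by -0.995 and Txnip by -0.82, with adjusted p-values of 0.000296 to 0.0234 in limma. On day 3 these 5 had shown changes of -0.09, 0.03, 0.13, 0.23 and 0.00. On day 1 their changes were -0.73, -0.46, -0.42, -0.27 and -0.43, in the same order. For none of these 5 was the difference between days 5 and 1 called (limma adjusted p 0.114 to 0.293 for Meiob, Obox6, Gstm3 and Txnip). Dhx9 differed by 0.75, Slc7a5 by 0.61, Krt8 by 0.57 and Tubb3 by 0.55 in the other direction. For Apela the pulse changes on the 3 days were -0.96, -0.31 and -0.96, and its difference between days 5 and 3 had an adjusted p of 0.0563.

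**Figure D5:**
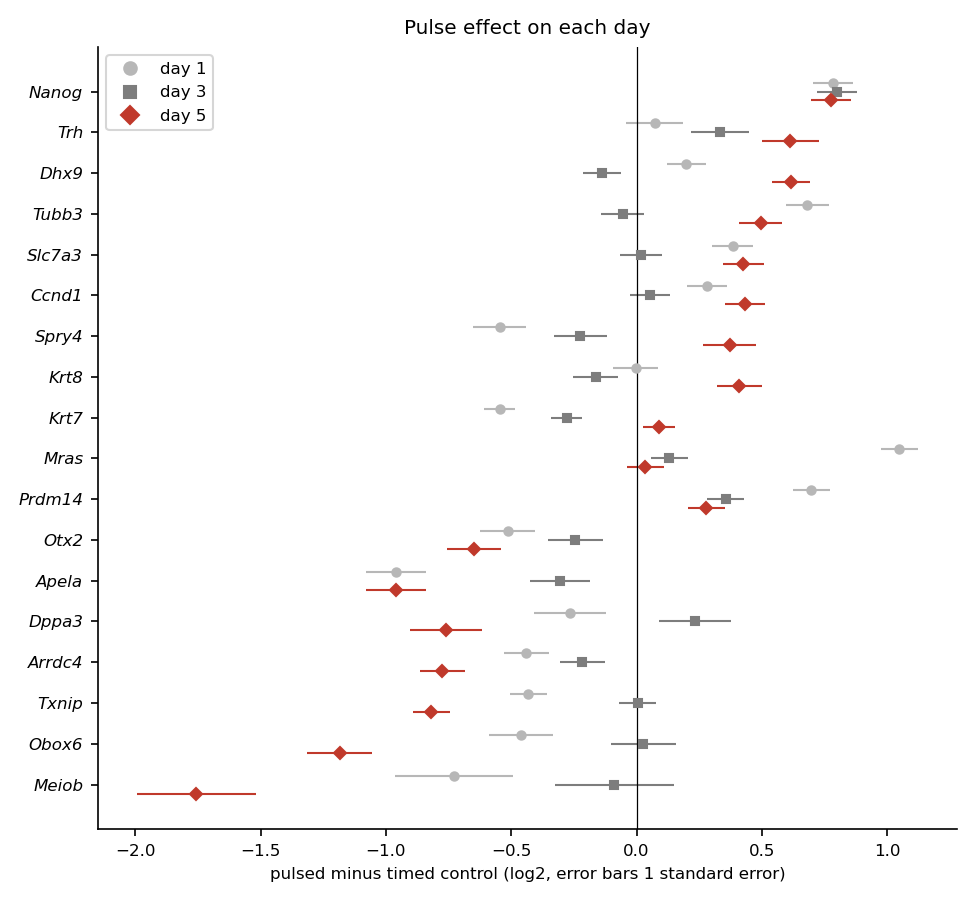
Pulsed minus timed control difference (log2, with standard error) of 18 genes for the pulses on days 1, 3 and 5. Nanog rises alike on the 3 days, and Mras responds at 1.05 on day 1 and 0.03 on day 5. Meiob, Obox6 and Txnip fall furthest on day 5, have values near 0 on day 3, and also fall on day 1 (-0.73, -0.46 and -0.43).

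Changes after the pulse were set against those of 5 days of withdrawal (day 5 -Dox against day 0), a comparison that shares no array with the pulse, called 9945 clusters (42.5%), and found 5558 clusters higher (23.8%) and 4387 lower (18.8%). Of the 1660 clusters lower after the pulse, 952 (57.3%) had risen on withdrawal, or 17.1% of the withdrawal rises, and 254 (15.3%) had fallen. Of the 1200 higher after the pulse, 168 (14%) had fallen on withdrawal, or 3.83% of the withdrawal falls, and 67 (5.58%) had risen. Among the calls of both fits, 145 of 219 falls (66.2%) had risen on withdrawal and 53 of 112 rises (47.3%) had fallen. Of the 206 clusters called under every leave-one-out and scaling fit, 116 of 172 falls (67.4%) and 14 of 34 rises (41.2%) ran against withdrawal.

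Over all 5558 clusters that rose on withdrawal, the median pulse difference was -0.11 on group means, -0.01 after spread adjustment and 0.06 in the replicate 1 arrays. Over the 4387 that fell, it was -0.02, 0.02 and 0.04. Taking only those that fell at least 2-fold on withdrawal (274 clusters), 18 were higher and 17 lower on group means, and 13 higher and 2 lower in both fits. Of the 555 that rose at least 2-fold, 6 were higher and 166 lower on group means, and 3 higher and 43 lower in both fits. These counts stand beside 5.13% higher and 7.1% lower over all clusters on group means, and 0.479% and 0.936% in both fits.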

How the data were processed

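Total RNA of 30 samples was hybridized to Mouse Gene 1.0 ST arrays. Each deposited value is the log2 signal of 1 cluster. RMA and Affymetrix Expression Console are the tools that the submitters' processing notes name for them, and versions, annotation and genome build are not given in the sources used here. Arrays have no read depth, and 3 arrays per group limit the precision. RMA equalizes array distributions at the probe level, yet the deposited arrays still differed in interquartile range.

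Of 28815 clusters, the platform table gave 21780 a single symbol, 1605 several and 5430 none. The 23385 with a symbol were tested, of which 238 repeated the values of an earlier cluster. Groups came from the labels. Limma 3.58.1 in R 4.3.3 fitted 10 group means to 30 arrays (20 residual degrees of freedom), with Benjamini-Hochberg adjustment over all tested clusters. The script was tested on simulated data with independent noise for each cluster and array. That simulation held no spread difference shared across an array, so it cannot speak to calls under such a difference.

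Named genes were Nanog, the 12 largest called rises and falls whose arrays did not overlap, up to 4 called members of each list by size of change, the 8 largest called differences between pulses in each direction, and a core set of pluripotency and lineage genes. Genes outside this rule were chosen after their values were seen. Not all are marked so where they appear, among them Zc3h6, Nr0b1, Ina, Tomm40, Hprt and some cell cycle genes. The brightest cluster stood for a gene. The comparison and the 28 lists (478 of 524 genes measured) were chosen with earlier results of these data known. Alternatives covered variance moderation, array weights, scaling, the interquartile range as a covariate, filters, a minimum change, a replicate block and each array left out. Promoters came from RefSeq.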

Additional observations from a re-analysis of the deposited data

Results flagged for a closer look

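The pulse effect of some named genes differed between days in a limma test of the difference itself, as log2 day 5 minus the other day. Against day 1, the day 5 effect was higher for Adam1a (0.71), Gabra2 (0.67), Krt7 (0.64), Olfr818 (0.60), Peg10 (0.59), Snora70 (0.58), Snora75 (0.66) and Spry4 (0.92), and lower for 4930519F09Rik (-0.55), Arhgef39 (-0.62), Clk1 (-0.55), Herpud1 (-0.67), Mme (-0.74), Mras (-1.01), Vstm5 (-0.76) and Zfp979 (-0.95). Against day 3, it was higher for Calr (0.38), Dhx9 (0.75), Hspd1 (0.32), Igkv5-43 (1.15), Krt7 (0.37), Krt8 (0.57), Lilra6 (0.84), Mir19b-1 (0.75), Olfr1152 (0.76), Olfr1261 (0.83), Slc2a1 (0.39), Slc7a5 (0.61), Snora70 (0.58), Snora75 (0.57), Tubb3 (0.55), Vmn1r6 (0.88) and Vmn2r60 (0.89), and lower for Arhgef39 (-0.52), Arrdc4 (-0.56), Ccnb2 (-0.57), Cntd1 (-0.80), Dppa3 (-0.995), Epp13 (-0.61), Gm5617 (-0.88), Gstm3 (-1.001), Insl6 (-0.83), Meiob (-1.67), Obox6 (-1.21), Txnip (-0.82), Zfp979 (-0.84) and Zfp982 (-0.89).

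Of these, Lilra6, Mir19b-1, Peg10, Krt7, Snora70, Mras and Vstm5 were not called in the day 5 pulse itself. Vomeronasal and olfactory receptors, small nucleolar RNAs and microRNAs have near-identical copies or shared probes and are uncertain.

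Among the 5430 clusters without a gene symbol, which no comparison above uses, 452 were called in the day 5 pulse, 306 higher and 146 lower, with p-values adjusted over all clusters. Under the same adjustment 2559 of the 23385 clusters with a symbol were called, 1043 higher and 1516 lower. Both counts are on group means, and no spread-adjusted count is given for clusters without a symbol.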

How the results depend on the processing

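The 2860 calls of the day 5 pulse depended on the fit. They were 11154 with array weights, 537 with the interquartile range as a covariate, 38 with a minimum change of 0.2, and 0 for the 6 arrays alone (limma; 4322 at an unadjusted p under 0.05). Leaving out 1 array gave 520 to 8617, with 8617 without control replicate 1, 5297 without pulsed replicate 1, 520 and 681 without control replicates 2 and 3, and 568 and 695 without pulsed replicates 2 and 3. In fits chosen after seeing the data, the replicate 1 arrays alone gave 1 call, Nanog (0.93), and leaving out the 2 widest control arrays gave 39; a lone array was assumed to vary like the other groups. The share of calls that were higher was 42% and became 64.9% (1721 higher, 929 lower) under a common interquartile range, 19.3% (440 and 1837) without the dimmest 40 percent, 53.4% with array weights, 54.6% with the covariate and 7.89% with the minimum change.
Between days 5 and 1, the 26 calls became 71 with trend and robust moderation, 4827 with array weights, 1 for the compared groups alone, 4 with median centring, 216 with quantile normalization, 144 with a common interquartile range, 322 with the covariate, 74 without dim clusters and 1 with the minimum change (3 to 349 leaving out 1 array). Between days 5 and 3, the 219 calls became, in the same order, 614, 7199, 0, 23, 811, 445, 833, 534 and 3 (26 to 881). The 9945 withdrawal calls became 4975 with the minimum change and kept within 1.5 times otherwise.
Nanog was higher under every alternative, by 0.70 to 0.85 leaving out 1 array. With the 6 arrays alone its change of 0.78 had an adjusted p of 0.0789. Under a common interquartile range the signs turned for Sox2 (0.1119), Apoe (0.0941), Ccnb2 (0.0336), Bub1 (0.0434), Tomm20 (0.0399), Trap1 (0.0923), Bnip3 (0.104), Suz12 (0.0282), Gja1 (0.1146) and Clk1 (0.0704), and in the replicate 1 arrays for Mmp3 (-0.028), Fgf21 (-0.094), Trap1 (0.0358) and Bcl2 (-0.0024). Replicate numbers were not taken as pairs. Deviations of same-numbered pulsed and control arrays correlated at -0.72, -0.33 and -0.30. The spread of same-numbered arrays also ran opposite ways, so these correlations cannot tell whether such arrays were handled together. With the replicate number as a block, 2639 clusters were called, and 10 and 156 for the differences from days 1 and 3; in the compared groups alone the block gave 0, 0 and 0 calls, and 0.78 with an adjusted p of 0.291 for Nanog. The cause of these differences was not tested.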
